A study of Mus musculus with 27 samples.

Results

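Metallothioneins are small cysteine-rich proteins that bind zinc and copper, and the liver is a main site of their synthesis. MTF1 is a transcription factor that senses free zinc and drives metallothionein genes through metal response elements in their promoters. Transporters of the SLC39 (ZIP) family bring zinc into the cytosol, and those of the SLC30 (ZnT) family move zinc out of it. The account covers 8 genes of this system in mouse liver: the metallothioneins *Mt1* and *Mt2*, the sensor *Mtf1*, the importers *Slc39a4*, *Slc39a5* and *Slc39a14*, and the exporters *Slc30a1* and *Slc30a10*. The 8 genes were chosen from 17655 genes in the deposited tables, by name and with their levels in these libraries already known, so what follows describes them. All 8 were found in the tables.

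Whole liver RNA was sequenced from 27 *Kdm5b* fl/fl mice, 1 library per mouse and 3 mice in each of 9 groups. Every mouse carried the floxed *Kdm5b* alleles, controls included, and differed by virus, sex and stage. WT mice received a control virus (AAV8-control on WDA, AAV-control at Res), whose promoter the labels do not give. KO mice received Cre from a CMV promoter, which is not limited to 1 cell type (AAV8-CMV-Cre on WDA, AAV-CMV-Cre at Res), and HepKO mice received AAV8-TBG-Cre, whose promoter is active in hepatocytes. WDA mice had a Western diet together with alcohol given in their water (WDA), for 8 weeks according to the labels. Res mice had 16 weeks of WDA and then 4 weeks of resolution, which per the study's methods means chow and plain water, with the virus given when alcohol was stopped. The groups were WT, KO and HepKO females and WT and KO males on WDA, and WT and KO females and males at Res. The labels give no age. All WDA libraries come from the experiment numbered 11 and all Res libraries from the experiment numbered 12. Stage, diet, length of WDA feeding, timing of the virus and experiment therefore cannot be told apart. The paper gives a common range of ages at the start of feeding, so age at sampling would go with stage as well. In bulk liver, fewer cells of a type and less RNA per cell cannot be told apart.

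Libraries summed to 14634602 to 19388251 counts, and levels are given as CPM, the count of a gene scaled to library size, after TMM scaling. *Kdm5b*, the floxed gene, was lower in every KO or HepKO mouse than in every WT mouse of the same sex and stage, except in KO WDA females, where mouse 1, at 24.1 CPM, lay inside the WT range of 21.4 to 31.2 CPM. In KO WDA males the drop was small, at 20.6 to 22.0 CPM against 23.5 to 24.9 CPM in WT. Their mean FPKM was 3.68, against 3.55 in WT WDA males. KO Res male 5 had 17.2 CPM, against 18.8 to 19.6 CPM in WT Res males. A whole-gene count also takes in exons outside the floxed part. Hepatocyte markers were abundant in all libraries (*Alb* at 54610 CPM or more). A few libraries stood apart. The sum of 5 cholangiocyte markers was 527 CPM in KO WDA male 17, 464 CPM in WT WDA female 7, 235 CPM in WT Res female 13 and 196 CPM in KO Res male 5, against 16.3 to 154 CPM elsewhere. WT Res female 13 also had 162 CPM of pancreatic acinar markers, against at most 5.87 CPM in the others. In WT WDA female 7 and WT Res female 13, 6 female-biased transcripts had a median of 0.0919 and 0.288 of the female level, and in KO Res male 5 it was 0.299. Comparisons and interactions of the 8 genes that involve these 4 libraries are also given with each of them left out. The share of all genes without overlap was not counted there, and smaller groups overlap less easily. Group levels, ratios, correlations and the other gene lists were not repeated without these libraries.

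Promoter windows were searched for the letters of the metal response element, and 3 windows are shown with their matches. RefSeq promoter windows (GRCm38.p6, 250 bases before to 50 after an annotated start) were found for 6 of the 8 genes: *Mt1*, *Mt2*, *Mtf1*, *Slc30a1*, *Slc30a10* and *Slc39a5*. The core of the metal response element was searched on both strands as TGCACNC or TGCGCNC. Each sequence below runs 5′ to 3′ on the forward strand, from 250 bases before the start to 30 bases after it, with every match in capitals. *Mt1* is shown at chr8:94178839-94179118, *Mt2* at chr8:94172368-94172647 and *Slc30a1* at chr1:191906531-191906810.
Mt1: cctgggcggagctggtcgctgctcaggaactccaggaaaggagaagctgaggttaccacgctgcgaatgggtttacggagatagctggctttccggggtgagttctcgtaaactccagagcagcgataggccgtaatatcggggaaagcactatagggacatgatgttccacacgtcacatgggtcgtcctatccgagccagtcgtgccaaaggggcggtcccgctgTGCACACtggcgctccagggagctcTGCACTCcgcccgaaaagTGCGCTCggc
Mt2: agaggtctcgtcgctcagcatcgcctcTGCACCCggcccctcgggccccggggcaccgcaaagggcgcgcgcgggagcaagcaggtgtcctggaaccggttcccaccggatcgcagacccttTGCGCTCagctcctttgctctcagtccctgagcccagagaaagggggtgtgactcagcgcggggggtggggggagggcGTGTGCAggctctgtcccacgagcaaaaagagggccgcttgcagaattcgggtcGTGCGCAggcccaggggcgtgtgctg
Slc30a1: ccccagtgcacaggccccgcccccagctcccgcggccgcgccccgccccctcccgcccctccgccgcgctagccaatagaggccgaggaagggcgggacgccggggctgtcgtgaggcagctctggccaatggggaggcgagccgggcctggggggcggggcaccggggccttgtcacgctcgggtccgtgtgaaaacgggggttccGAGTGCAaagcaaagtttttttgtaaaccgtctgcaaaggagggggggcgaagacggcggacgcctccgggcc

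Positions count from the annotated start that each window uses, which is not always the first base of the gene. *Mt1* and *Slc30a1* begin earlier, at bases 94178883 and 191906697, so part of each stretch shown lies inside the gene. All matches found for *Mt1* and *Slc30a1* lie inside the gene as well. *Slc39a5* also reaches past the starts of its windows. *Mt1* held 3 matches, at bases -23 to -17, 3 to 9 and 21 to 27 from the start, all on the forward strand. *Mt2* held 4, at -223 to -217 and -128 to -122 on the forward strand and at -50 to -44 and 5 to 11 on the reverse strand. *Slc30a1*, a zinc exporter of the plasma membrane, held 2 on the reverse strand, at -43 to -37 and at 31 to 37, the last of which lies past the stretch printed. *Slc30a10* held 3, of which 2 overlap on opposite strands, and *Slc39a5* held 1 in 1 of its 2 windows. *Mtf1* held none. Of 32851 RefSeq windows of this length, 25.7% held at least 1 match, 7.11% at least 2, 1.97% at least 3 and 0.517% at least 4. A match is a description of letters and shows no binding. *Mt2* and *Mt1* lie 5315 bases apart on chromosome 8 (94172618 to 94173567 and 94178883 to 94180327). The other members lie on chromosomes 4 (*Mtf1*), 15 (*Slc39a4*), 10 (*Slc39a5*), 14 (*Slc39a14*) and 1 (*Slc30a1* and *Slc30a10*), and all are protein coding.

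**Figure D1:**
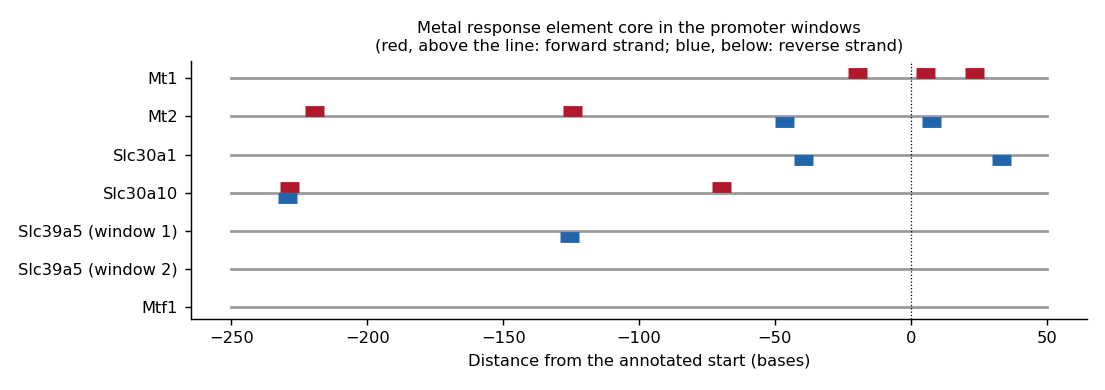
Positions of the metal response element core in the 7 promoter windows of 6 genes, as distance from the annotated start in bases (0 on the horizontal axis is the start). Red marks above a line are on the forward strand and blue marks below it on the reverse strand; *Mt2* holds 4, *Mt1* and *Slc30a10* hold 3 each, and *Mtf1* holds none.

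On a scale that corrects for transcript length (FPKM), the metallothioneins stood far above the other genes of zinc handling. Over the 27 libraries the median level was 1001 FPKM for *Mt1* and 468 FPKM for *Mt2*, the highest of 29 metallothionein, SLC39, SLC30 and *Mtf1* genes. The next was *Slc39a1*, a broadly expressed importer, at 37.2 FPKM. *Slc39a14*, an importer of zinc and non-transferrin iron, had a median of 32.4 FPKM and ranked 4. *Slc39a4*, best known as the intestinal zinc importer, had 18.5 FPKM. The exporters *Slc30a1* and *Slc30a10* (the latter known mainly as a manganese exporter) had 9.51 and 8.72 FPKM. *Mtf1* had 1.77 FPKM, and *Slc39a5* was near the limit of detection at 0.710 FPKM, with 5 to 79 counts per library. *Mt3*, *Mt4* and *Slc30a2* had at most 2 counts in any library. *Mt1* and *Mt2* are close in sequence, and how reads that match both were shared out between them was not tested.

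*Mt1* spanned a 46.5-fold range of CPM over the 27 mice. It was highest in KO Res females, at 1478, 1169.6 and 1266 CPM in mice 2, 3 and 4. WT Res females had 674, 230.3 and 329.9 CPM in mice 1, 12 and 13. No WT mouse reached the lowest KO mouse at this stage. On WDA, the females had 84.7, 169 and 228 CPM (WT mice 5, 6 and 7), 469.5, 134 and 215 CPM (KO mice 1, 2 and 3) and 564, 409 and 409 CPM (HepKO mice 13, 14 and 15). All HepKO mice exceeded all WT mice, while KO mice spread over both ranges. Males on WDA had the lowest group means, with 152, 31.8 and 38.4 CPM in WT mice 19, 20 and 21 and 75.8, 131 and 42.7 CPM in KO mice 16, 17 and 18. At Res, WT males had 345, 276 and 654 CPM (mice 7, 8 and 9) and KO males had 511, 317 and 323 CPM (mice 5, 6 and 11). Every Res male lay above every WDA male, and WT and KO males overlapped at both stages. Ordered by mean, KO Res females (1304 ± 158 CPM, SD, n = 3) stood clear of the next group, HepKO WDA females (461 ± 89.2 CPM), and the other 7 pairs of neighbouring groups overlapped.

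*Mt2* followed *Mt1* with a wider range, 159-fold. KO Res females had 877, 745 and 704 CPM and WT Res females 352, 70.1 and 174 CPM, again without overlap. HepKO WDA females had 398, 293 and 333 CPM, KO WDA females 385, 66.2 and 120.5 CPM and WT WDA females 60.4, 88.1 and 108 CPM. All HepKO mice were above all WT mice, and KO mouse 1 was among the HepKO values. In WT WDA males *Mt2* was at 14.7, 6.90 and 5.51 CPM, and in KO WDA males at 30.4, 51.2 and 9.24 CPM. These were the 2 lowest groups, and both lay below WT WDA females. At Res, WT males had 214, 155 and 384 CPM and KO males 330.4, 88.1 and 255 CPM, above every WDA male. Together *Mt1* and *Mt2* took 0.00347% to 0.0149% of all counts in WT WDA males and 0.187% to 0.218% in KO Res females.

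The balance of the 2 metallothioneins also varied. In most groups the FPKM of *Mt2* was 0.436 to 0.716 of that of *Mt1* on average (0.572 ± 0.0400, SD, n = 3, in KO Res females). In WT WDA males it was 0.146 ± 0.0576 and in KO WDA males 0.323 (range 0.208 to 0.385). The low *Mt2* of WDA males was therefore not matched by an equally low *Mt1*. In WT Res males the ratio was 0.566 ± 0.0255.

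**Figure D2:**
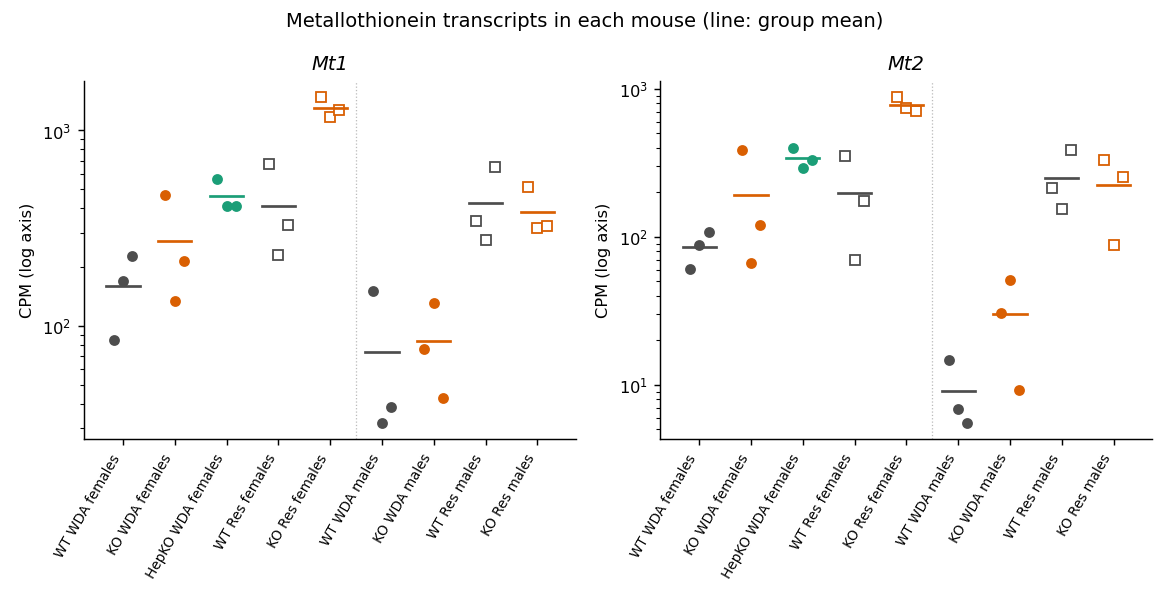
*Mt1* and *Mt2* in CPM (log axis) in each of 27 mice, by group; grey is WT, orange KO and green HepKO, filled circles are WDA, open squares Res, and lines are group means of 3 mice. KO Res females (1169.6 to 1478 CPM of *Mt1*) lie above all other mice, and WDA males have the lowest group means, with single mice down to 5.51 CPM of *Mt2*.

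*Mtf1*, the zinc sensor, ran against the metallothioneins in females. It was at 7.22, 8.82 and 8.26 CPM in KO Res females and at 7.86, 10.4 and 9.55 CPM in HepKO WDA females. WT WDA females had 13.2, 16.7 and 14.9 CPM and KO WDA females 7.82, 13.6 and 11.6 CPM. WT Res females had 8.34, 16.8 and 16.3 CPM. In each of these groups except WT WDA, the mouse with the lowest *Mtf1* had the highest *Mt1* of its group. In males *Mtf1* was nearly level, from 13.4 to 15.5 CPM, except in KO Res mouse 5, at 10.6 CPM. All 8 pairs of neighbouring groups overlapped in order of mean. *Mtf1* overlaps the gene 1110065P20Rik in the annotation, and how shared reads were counted was not tested.

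Of the importers, *Slc39a4* divided the females by stage. WDA females of the KO and HepKO groups had 58.0, 59.1 and 60.9 CPM and 56.0, 63.6 and 69.4 CPM. WT WDA females had 55.1, 62.0 and 36.3 CPM, the last in mouse 7, which stands apart by its cholangiocyte markers. Res females had 37.7, 24.9 and 24.5 CPM (WT) and 38.9, 33.9 and 37.1 CPM (KO), below every WDA female except WT mouse 7. Males lay between 25.1 and 47.7 CPM, and KO WDA males (42.4, 39.6 and 47.7 CPM) were above both Res groups of males, at 26.5 to 35.3 CPM.

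*Slc39a5*, a zinc importer of the basolateral membrane, was scarce, and its values rest on few counts. WT WDA females had 7, 5 and 11 counts (0.416, 0.279 and 0.488 CPM). KO WDA females had 20, 38 and 31 counts (1.16, 2.08 and 1.81 CPM) and HepKO WDA females 79, 78 and 28 counts (4.43, 4.40 and 1.56 CPM). Both Cre groups lay above all WT mice. At Res, WT females had 1.24, 1.19 and 0.839 CPM and KO females 1.35, 3.25 and 2.25 CPM, and WT males had 0.378, 0.474 and 0.477 CPM and KO males 1.09, 1.63 and 1.14 CPM. KO mice were above WT mice in both sexes, by little in females. On WDA, males had 1.03, 0.302 and 0.627 CPM (WT) and 0.646, 0.678 and 1.70 CPM (KO) and overlapped. *Slc39a14* varied least among the members, 2.32-fold over all mice. It lay between 119.8 CPM (a KO Res male) and 278 CPM (KO WDA female 1), and all neighbouring groups overlapped.

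Of the exporters, *Slc30a1* had the same leading groups as the metallothioneins. KO Res females had 65.8, 76.9 and 83.4 CPM and HepKO WDA females 71.6, 58.3 and 53.1 CPM. WT Res females had 49.9, 33.3 and 34.1 CPM, KO WDA females 43.3, 38.7 and 57.3 CPM and WT WDA females 36.6, 39.8 and 36.3 CPM. KO Res females were above all WT females. Males had 28.9, 34.2 and 29.0 CPM (WT) and 31.3, 25.3 and 27.9 CPM (KO) on WDA. At Res they had 48.4, 44.5 and 40.0 CPM (WT) and 50.8, 38.02 and 44.8 CPM (KO), above every WDA male. *Slc30a10* had another order. KO WDA females were highest with 72.0, 65.3 and 59.1 CPM, HepKO WDA females had 50.8, 50.3 and 47.4 CPM and KO Res females 38.1, 44.1 and 46.2 CPM, and these 3 groups did not overlap. WT females were scattered, with 67.6, 48.3 and 18.03 CPM on WDA and 49.3, 87.0 and 44.1 CPM at Res. WDA males had the lowest means, with 33.5, 37.8 and 29.1 CPM (WT) and 29.9, 18.8 and 23.3 CPM (KO), and Res males had 63.3, 51.4 and 42.3 CPM (WT) and 45.3, 61.2 and 51.4 CPM (KO). *Slc30a1* and *Slc30a10* each overlap a long noncoding RNA in the annotation (1700034H15Rik and Gm2061), and how shared reads were counted was not tested.

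**Figure D3:**
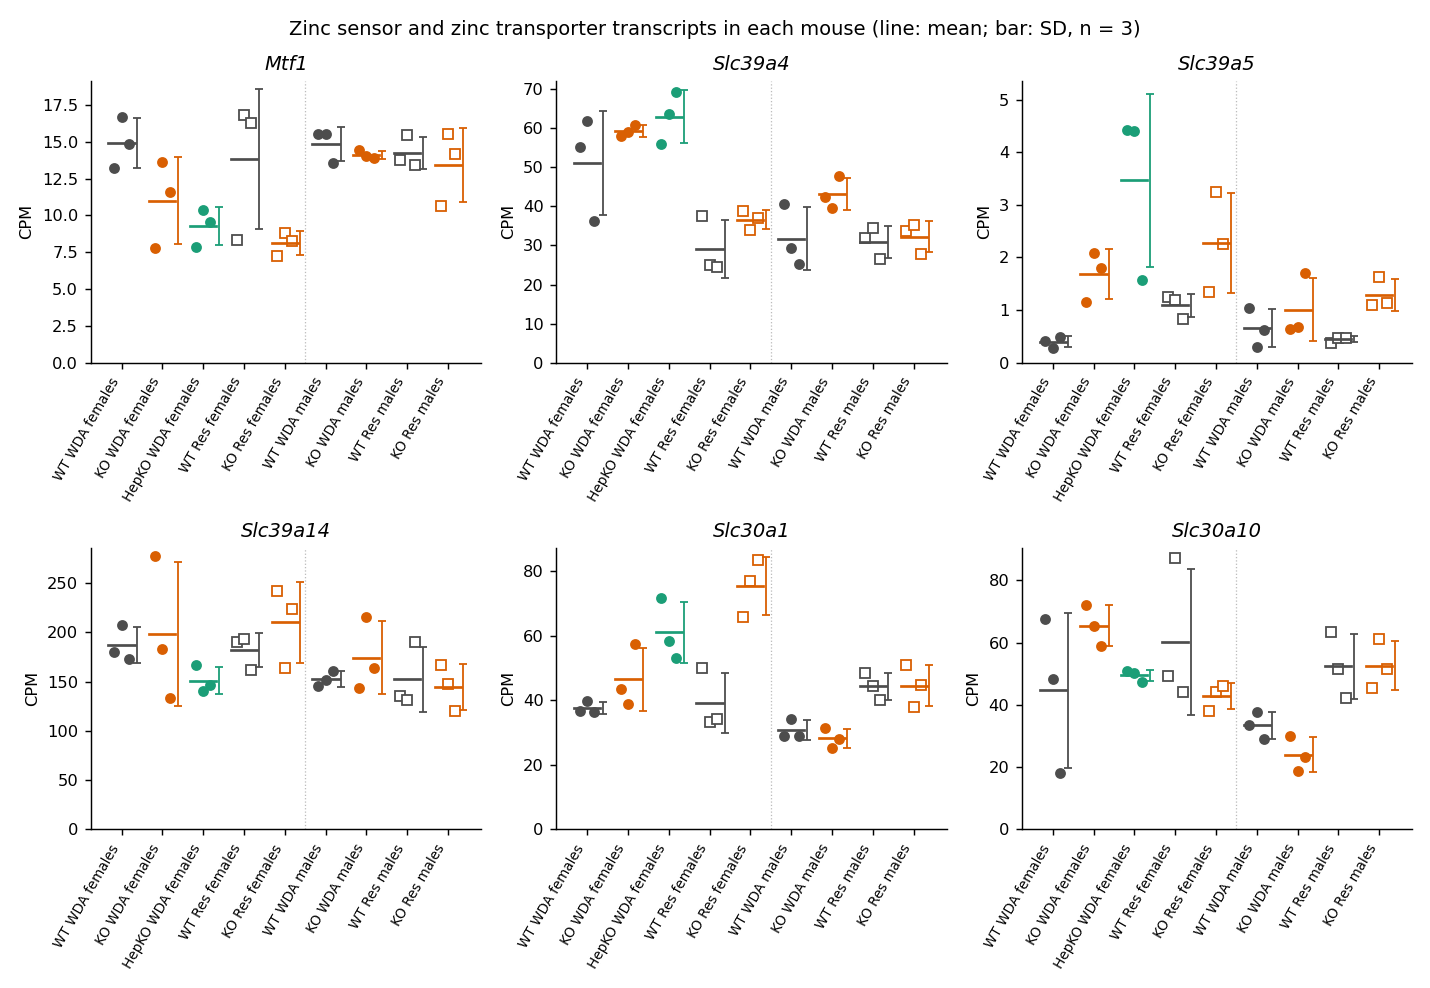
CPM (linear axes from 0) of *Mtf1* and the 5 transporters in each of 27 mice, by group; grey is WT, orange KO and green HepKO, filled circles are WDA, open squares Res, lines are means and bars SD of 3 mice. *Slc30a1* is highest in KO Res females (65.8 to 83.4 CPM), where *Mtf1* is lowest (7.22 to 8.82 CPM).

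The first question was what *Kdm5b* deletion does at Res, after alcohol was stopped. In females *Mt1*, *Mt2*, *Slc30a1* and *Slc39a5* were higher in all KO mice than in all WT mice, and no member was lower throughout. The log2 fold change was 1.63 (SE 0.35) for *Mt1*, 1.93 (SE 0.48) for *Mt2*, 0.91 (SE 0.17) for *Slc30a1* and 1.03 (SE 0.39) for *Slc39a5*. None of these passed the quasi-likelihood test of edgeR at a Benjamini-Hochberg adjusted p of 0.05 over all genes, with adjusted p of 0.105, 0.119, 0.0944 and 0.215. Without overlap between libraries were 4 of the 8 members and 26.2% of 12577 genes tested. Called were 0 members and 0% of genes, while 5 members and 2413 of all genes had an unadjusted p under 0.05. DESeq2 called 615 of the 12577 genes, among them *Mt1*, *Mt2* and *Slc30a1*, with adjusted p of 5.03e-05, 0.0288 and 0.000557. Exact permutation of 3 against 3 mice cannot give a two-sided p below 0.1.

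WT Res female 1 decides this comparison. Its metallothioneins, *Slc30a1* and *Mtf1* lay nearest to the KO mice, and without it edgeR called 5 members, with adjusted p of 0.0103 for *Mt1*, 0.0212 for *Mt2*, 0.0151 for *Slc30a1*, 0.0174 for *Mtf1* and 0.0477 for *Slc39a4*. Genes called over the whole table then rose from 0 to 852, of 12814 tested. Without WT Res female 13, which stands apart by its markers, 5 members did not overlap and 0 were called. For all genes the share without overlap was not counted in that setting. A list of 12 glucocorticoid-responsive genes, a class to which the metallothioneins belong, summed to 9502 to 12875 CPM in KO Res females and to 6382 to 10037 CPM in WT Res females, with the highest WT value in mouse 1. The sum of 6 hepatocyte markers was 143365 to 171848 CPM in KO and 98402 to 155172 CPM in WT Res females. Its highest WT value was again in mouse 1, and *Tat* is on both lists. The part of either list in the result was not tested.

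In Res males only *Slc39a5* was without overlap (log2 fold change 1.53, SE 0.39, adjusted p = 0.9998 in edgeR), 1 of 8 members against 4.64% of 12620 genes. Called were 0 members and 0% of genes by edgeR, DESeq2 called 0 members, and 1 member had an unadjusted p under 0.05. Without KO Res male 5, again 1 member did not overlap and 0 were called. *Mt1* was at 384 ± 110.0 CPM in KO and 425 ± 201 CPM in WT males (SD, n = 3). The difference of the KO effect between sexes was tested as an interaction at Res. It was 1.77 (SE 0.55) on the log2 scale for *Mt1*, 2.08 (SE 0.78) for *Mt2* and 0.90 (SE 0.24) for *Slc30a1*, larger in females, with adjusted p of 0.285, 0.341 and 0.265. The edgeR test called 0 of 8 members and 0% of 13178 genes, DESeq2 called 0 members, and 4 members had an unadjusted p under 0.05. Without WT Res female 1, edgeR called *Mt1* and *Slc30a1* (adjusted p 0.0394 and 0.0319) and 241 of 13412 genes. Without WT Res female 13 or KO Res male 5 it called 0 members and 0 genes.

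On WDA, KO and WT mice were compared in the same way. In females *Slc39a5* alone did not overlap (log2 fold change 2.04, SE 0.42, adjusted p = 0.978 in edgeR), 1 of 8 members against 8.81% of 12397 genes. Called were 0 members and 0% of genes, DESeq2 called 0 members, and 1 had an unadjusted p under 0.05. Leaving out WT WDA female 7 gave the same counts of members. In males 0 of 8 members and 16.3% of 12419 genes did not overlap. Called were 0 members and 0% of genes, DESeq2 called 0, and 3 members had an unadjusted p under 0.05, as had 958 of all genes. These were *Mt2* (log2 fold change 1.77, SE 0.64), *Slc39a4* (0.46, SE 0.19) and *Slc30a10* (-0.47, SE 0.18), each with an adjusted p of 0.588 in edgeR. Without KO WDA male 17, 1 member did not overlap (share of all genes not counted) and 0 were called. For the difference of the KO effect in females between stages, the interaction test of edgeR called 0 of 8 members and 0% of 12940 genes, DESeq2 called 0 members, and 1 member had an unadjusted p under 0.05. The estimate was 0.90 (SE 0.70) for *Mt1* and 0.64 (SE 0.25) for *Slc30a1*, larger at Res. Without WT WDA female 7 or WT Res female 13 edgeR called 0 members and 0 genes.

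Deletion directed to hepatocytes was compared on WDA in females. In HepKO against WT WDA females, *Mt1*, *Mt2*, *Slc39a5* and *Slc30a1* were higher in all HepKO mice, and *Mtf1* and *Slc39a14* were lower in all. That is 6 of 8 members, against 18.6% of 12413 genes. The log2 fold change was 1.51 (SE 0.37) for *Mt1*, 1.98 (SE 0.25) for *Mt2*, 3.10 (SE 0.51) for *Slc39a5* and 0.69 (SE 0.14) for *Slc30a1*, with adjusted p of 0.288, 0.140, 0.170 and 0.212 in edgeR. For *Mtf1* it was -0.70 (SE 0.16, adjusted p = 0.253 in edgeR) and for *Slc39a14* -0.32 (SE 0.14, adjusted p = 0.509 in edgeR).

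The edgeR test called 0 members and 0% of genes here, and 5 members and 1249 of all genes had an unadjusted p under 0.05. DESeq2 called 222 of the 12413 genes, among them those 5 members, *Mt1*, *Mt2*, *Mtf1*, *Slc39a5* and *Slc30a1*, with adjusted p of 0.00454, 5.66e-11, 0.0404, 8.87e-05 and 0.00643. WT WDA female 7 decides the edgeR count. Without it *Mt1*, *Mt2*, *Slc39a5* and *Slc30a1* were called, with adjusted p of 0.0103, 0.00215, 0.0207 and 0.0388, and so were 349 of 12471 genes, where 0 were called with it. The glucocorticoid list summed to 7451 to 8152 CPM in HepKO and 4116 to 4601 CPM in WT females, without overlap. In WT males, whose metallothioneins were higher at Res, it summed to 6020 to 8588 CPM on WDA and 5257 to 8539 CPM at Res. Its part in the result was not tested. Against KO WDA females, only *Slc30a10* did not overlap, 1 of 8 members against 10.9% of 12351 genes, and was lower in HepKO (log2 fold change -0.41, SE 0.11, adjusted p = 0.611 in edgeR). Called were 0 members and 0.0162% of genes, DESeq2 called 0 members, and 3 members had an unadjusted p under 0.05. The HepKO and KO comparisons share their WT mice.

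**Figure D4:**
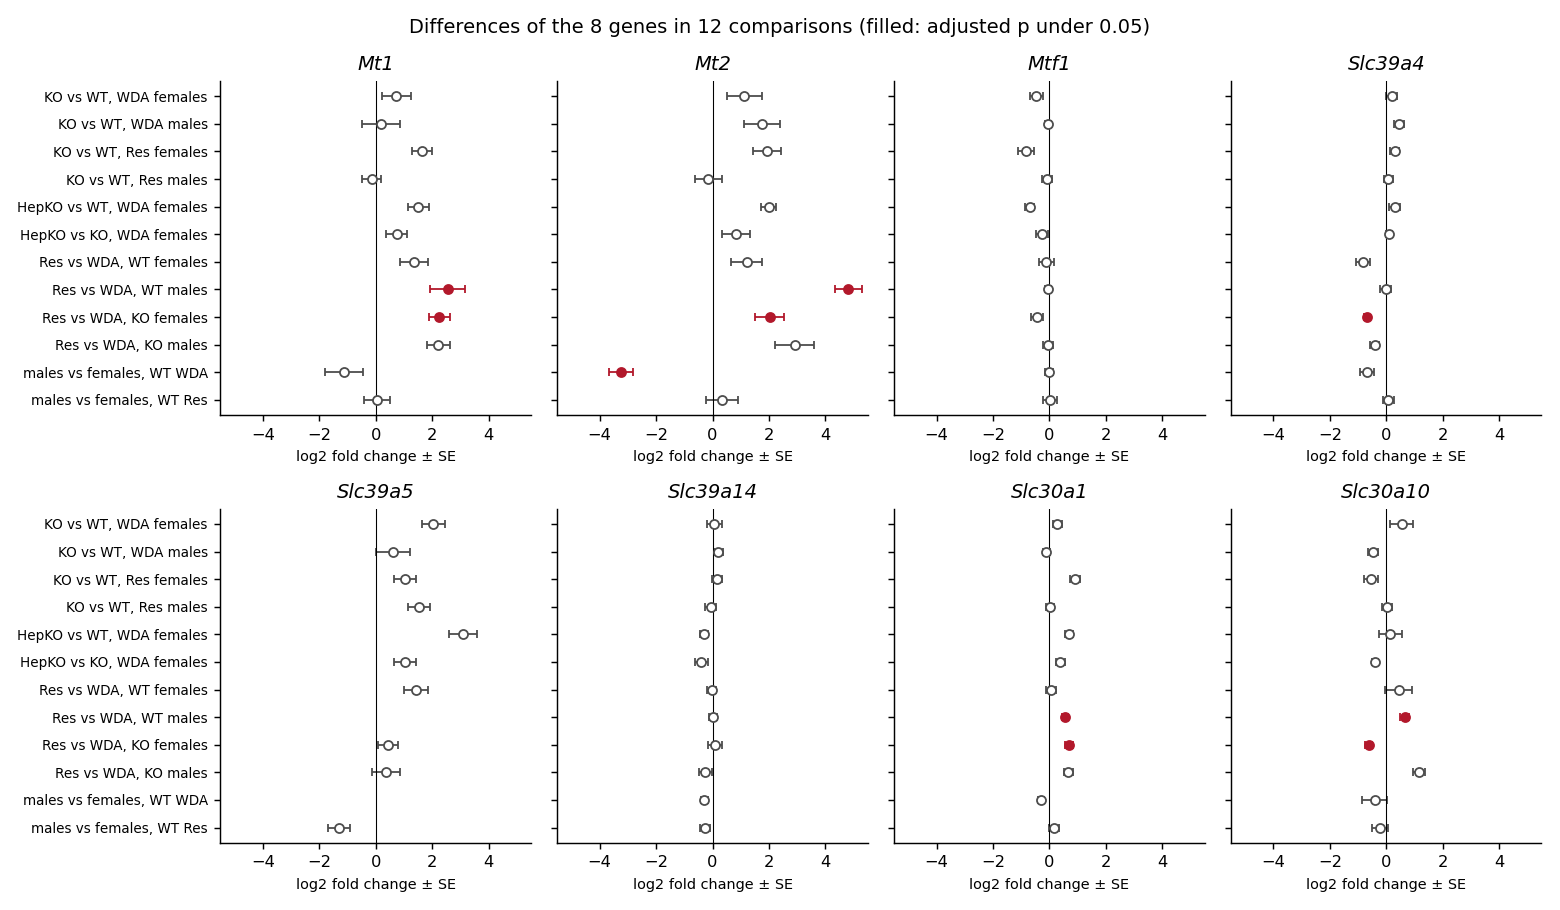
Log2 fold change with its SE (edgeR, 3 against 3 mice) for the 8 genes in 12 comparisons; filled red points have an adjusted p under 0.05 over all genes, and *Slc39a5* was below the count filter in 2 comparisons. The points past the threshold lie in Res against WDA in WT males and KO females, and in males against females of the WT WDA mice (*Mt2*, -3.25).

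The second question was what changes from WDA to Res. Both metallothioneins had a higher mean at Res in all 4 matched pairs of groups, and the difference passed the test in WT males and KO females. In WT males *Mt1* rose by 2.55 (SE 0.62) and *Mt2* by 4.82 (SE 0.47) on the log2 scale, with adjusted p of 0.0380 and 0.00329 in edgeR. The exporters *Slc30a1* (0.55, SE 0.11) and *Slc30a10* (0.66, SE 0.15) rose too, with adjusted p of 0.0217 and 0.0348 in edgeR. These 4 of 7 members tested were called and did not overlap, against 11% of 12408 genes called and 36% without overlap. The number called fell to 1, *Mt2*, when WT WDA male 20, WT WDA male 21 or WT Res male 8 was left out, and to 2 without WT WDA male 19 or WT Res male 7.

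In KO females 5 of 8 members were called and did not overlap, against 20.4% of 12470 genes called and 40.4% without overlap. *Mt1* rose by 2.26 (SE 0.38), *Mt2* by 2.02 (SE 0.51) and *Slc30a1* by 0.70 (SE 0.15), with adjusted p of 0.00448, 0.0229 and 0.0142 in edgeR. *Slc39a4* fell by 0.70 (SE 0.10, adjusted p = 0.00293 in edgeR) and *Slc30a10* fell by 0.61 (SE 0.12, adjusted p = 0.00933 in edgeR). KO WDA female 1, whose *Kdm5b* was in the WT range, had the metallothionein levels nearest to the Res mice. Without it *Mtf1* was called as well (adjusted p = 0.0281 in edgeR), and without KO Res female 4 the number called was 3.

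In the other 2 groups the edgeR test called 0 members and 0% of genes. In KO males *Mt1* (log2 fold change 2.23, SE 0.42), *Mt2* (2.91, SE 0.68), *Slc30a1* (0.68, SE 0.17) and *Slc30a10* (1.15, SE 0.21) were higher in all Res mice and *Slc39a4* (-0.41, SE 0.16) was lower in all, 5 of 8 members against 12.9% of 12747 genes. Their adjusted p in edgeR were 0.349, 0.541, 0.573, 0.343 and 0.719. DESeq2 called 79 genes, among them *Mt1* and *Slc30a10* (adjusted p 1.13e-05 and 0.00126), and 5 members and 819 of all genes had an unadjusted p under 0.05. Without KO WDA male 17 or KO Res male 5, again 5 members did not overlap and 0 were called by edgeR. Over all genes edgeR then called 10 and 0. In WT females *Mt1* (1.35, SE 0.49) and *Slc39a5* (1.44, SE 0.42) did not overlap, 2 of 8 members against 20.4% of 12603 genes, with adjusted p of 0.321 and 0.248 in edgeR. DESeq2 called 0 members there, and 3 had an unadjusted p under 0.05. Without WT WDA female 7, *Slc39a4* did not overlap either and was lower at Res, and 0 members were called. Without WT Res female 13, 2 members did not overlap and 0 were called.

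Other genes of metal handling were compared between stages too, where 11% of all genes were called in WT males and 20.4% in KO females. In WT males 1 of 10 other SLC39 importers was called higher and 1 lower (*Slc39a6* by 0.94 and *Slc39a9* by -0.43), 1 of 5 other SLC30 exporters was higher (*Slc30a4*, 0.46), and 1 of 7 MTF1-dependent genes was higher (*Ndrg1*, a stress-responsive gene, 0.93). In KO females 2 of 9 other importers were lower (*Slc39a9* by -0.83 and *Slc39a3* by -0.44), and 0 of 6 exporters and 0 of 7 MTF1-dependent genes were called by edgeR. Copper handling had calls in 1 direction, with 3 of 10 genes lower in WT males (*Atox1*, a cytosolic copper chaperone, -0.62; *Commd1*, -0.49; *Ccs*, -0.49) and 2 of 10 lower in KO females (*Atox1*, -0.47; *Slc31a1*, -0.46). The median log2 fold change of the other importers was -0.14 in WT males and -0.30 in KO females, against 0.02 and 0.01 over all genes tested.

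Lists of genes that respond to stress, hormones and time of day were counted in the same comparisons, against the same 20.4% of all genes called in KO females and 11% in WT males. In KO females 9 of 12 glucocorticoid-responsive genes were called higher at Res, among them *Ddit4* (2.30), *Dusp1* (1.92), *Fkbp5* (1.91) and *Per1* (1.85). In WT males 1 of 12 was (*Fkbp5*, 1.44). Of 22 acute phase genes, 7 were called higher in WT males, led by *Saa2* (3.40), *Saa3* (3.07), *Lcn2* (2.89) and *Saa1* (2.74), and 3 in KO females (*Cebpd*, 1.77; *Il1r1*, 1.42; *Hp*, 1.02). Of 13 clock genes, 3 rose and 4 fell in WT males, with *Dbp* at -4.21, *Nr1d1* at -3.15, *Npas2* at 2.57 and *Arntl* at 1.38, and 6 rose and 2 fell in KO females. Of the neutrophil markers tested, 3 of 3 were called higher in WT males and 2 of 4 in KO females (*S100a8*, 2.06 and 2.84). *S100a8* was scarce, with group means of 0.571 and 2.39 CPM in WT males and 0.768 and 5.52 CPM in KO females. The 1 enterocyte marker tested, *Fabp2*, was called lower in both (-1.37 and -1.35). It was at 47.6 to 221 CPM over all libraries, while the others on its list had at most 2.40 CPM. Its call is therefore not read as a change in enterocytes. In KO females 3 of 6 hepatocyte, 2 of 7 macrophage and 1 of 6 stellate cell markers were called higher as well, and in WT males 1 of 3 cholangiocyte and 1 of 5 endothelial markers. The lists share genes: *Tat* is a hepatocyte and a glucocorticoid entry, and *Per1* a glucocorticoid and a clock entry. *Trem2*, 1 of the macrophage calls, was scarce, with group means of 0.374 CPM on WDA and 1.38 CPM at Res in KO females. The median log2 fold change of the endothelial markers in WT males was -0.30, with 2 of 5 higher and 2 of 5 lower in all Res mice. Elsewhere 2 of 13 clock genes were called higher in HepKO than in KO WDA females (*Ciart*, 2.86, and *Dbp*, 1.85), against 0.0162% of genes. Of 22 acute phase genes, 2 were called lower in males on WDA (*Orm2*, -1.53, and *Steap4*, -0.82), against 0.851% of genes. At Res 1 of 22 was called higher in males (*Saa3*, 2.95), against 0.545% of genes. The part of these lists in the values of the 8 genes was not tested.

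Sex was compared in WT mice. On WDA *Mt2* was lower in males by -3.25 (SE 0.42, adjusted p = 0.0308 in edgeR), with 5.51 to 14.7 CPM against 60.4 to 108 CPM in females. *Slc39a14* (-0.30, SE 0.12) and *Slc30a1* (-0.30, SE 0.11) were lower in all males too, with adjusted p of 0.342 and 0.299 in edgeR. That is 3 of 7 members tested without overlap, against 24.4% of 12333 genes, and 1 of 7 called, against 0.851%. Without WT WDA female 7, 5 members were lower in all males, with the share of all genes not counted. There edgeR called *Mt2*, *Slc39a4* and *Slc30a10*, among 1036 of 12406 genes. The call of *Mt2* was lost when WT WDA male 20 or 21 or WT WDA female 5 or 6 was left out (adjusted p up to 0.203). At Res only *Slc39a5* did not overlap and was lower in males (-1.29, SE 0.39, adjusted p = 0.334 in edgeR), 1 of 8 members against 15.4% of 12661 genes. The edgeR test called 0 members and 0.545% of genes, DESeq2 called 0 members, and 1 had an unadjusted p under 0.05. Without WT Res female 13, again 1 member did not overlap and 0 were called. *Mt2* at Res was at 251 ± 119 CPM in males and 199 ± 143 CPM in females (SD, n = 3).

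Across the 27 libraries *Mt1* and *Mt2* were closest to each other, with Pearson's r of log2 CPM of 0.955, and of 0.868 after each group was centred on its mean. These are descriptions over libraries that share groups and stages. *Mt1* and *Mtf1* ran in opposite directions (r = -0.66, and -0.50 after centring). *Mt1* and *Slc30a1* ran together over all libraries (r = 0.792) but hardly within groups (r = 0.125 after centring). *Mt1* and *Slc30a10* had r = 0.321, and -0.43 after centring.

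Among 10992 genes with a mean log2 CPM of at least 1, those most like *Mt1* were *Mt2*, *Tab2* (0.908) and *Etv3* (0.885), and those most like *Mt2* were *Mt1*, *Cdkn1a* (0.923), a cell cycle inhibitor, and *Rnf144a* (0.913). After centring they were *Mt2*, *Rhbdf2* (0.802) and *Dynlt1c* (0.794) for *Mt1*, and *Srrm4* (0.878), *Mt1* and *Stk24* (0.824) for *Mt2*. *Mtf1* was most like 3 zinc finger genes, *Zfp322a* (0.912), *Zscan22* (0.899) and *Zfp866* (0.895), and after centring like *Zfp60* (0.890), *Nfe2l2* (0.838), the oxidative stress factor NRF2, and *Zscan21* (0.833). *Slc39a4* was most like *Dusp22* (0.886), *Pomt1* (0.870) and *Scarb1* (0.862), the HDL receptor, and after centring like *Ndufa7* (0.816), *Ces1b* (0.799) and *Cox6b1* (0.790).

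The remaining transporters had other neighbours. *Slc30a1* was most like *Siah1a* (0.911), *Atl2* (0.907) and *Ddx20* (0.906), and after centring like *Tdp2* (0.813), *Sfmbt1* (0.810) and *Atl2* (0.802). *Slc30a10* was most like *Rnft1* (0.872), *Pxmp4* (0.843) and *Avpr1a* (0.840), and after centring like *Abcb11* (0.911), the bile salt export pump, *Lgals9* (0.908) and *Fam210b* (0.904). *Slc39a5* was most like *Golm2* (0.778), *Sult2a7* (0.713) and *Prkce* (0.708), and after centring like *Dus4l* (0.672) and *Ccdc127* (0.631). *Slc39a14* was most like *Wipf2* (0.718), *Dll1* (0.716) and *Gps2* (0.693), and after centring like *Rbfox2* (0.811), *Dll1* (0.811) and *Mapk1ip1* (0.807). The scarce *Slc39a5* and the steady *Slc39a14* had the weakest likeness over all libraries.

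**Figure D5:**
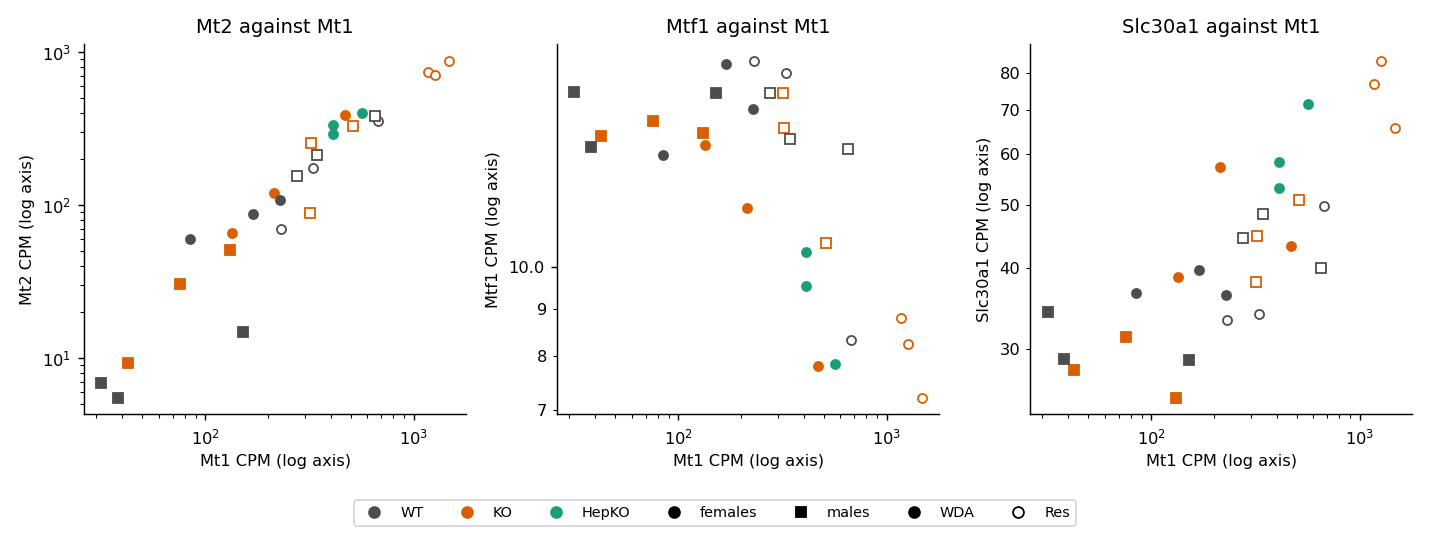
CPM (log axes) of *Mt2*, *Mtf1* and *Slc30a1* against *Mt1* in 27 mice; grey is WT, orange KO and green HepKO, circles are females, squares males, filled WDA and open Res. *Mt2* runs with *Mt1* (r = 0.955), *Mtf1* is lower where *Mt1* is high in females, and *Slc30a1* runs with *Mt1* over all mice (r = 0.792).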

How the data were processed

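Whole liver RNA of 27 mice was sequenced by a service on the BGISEQ platform, and per the labels and the methods clean reads were aligned with HISAT to GRCm38.p6 and with Bowtie2 to reference genes. The counting tool and its strand setting are not given in the sources used here. The 4 deposited tables hold 1 expected count per gene and library, not normalized. They also hold FPKM, already scaled to gene length and depth when the authors deposited them. The authors' fold change and p-value columns were not used. Genes that a table does not list were set to 0 in its libraries.

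After rounding, expected counts entered edgeR 4.0.16 under R 4.3.3 (filterByExpr with a minimum count of 10, TMM, glmQLFit and glmQLFTest, Benjamini-Hochberg adjustment over all genes tested, threshold 0.05), fitted on the groups compared, or on 4 groups for interactions. Each SE is the absolute log2 fold change divided by the root of its F value. CPM used TMM factors over all 27 libraries, and correlations used log2 CPM with a prior count of 2. The fits were tested on simulated counts.

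All 8 members are described in every library. A fold change is given where the libraries of 2 groups do not overlap or a member is called, and for interactions. In KO against WT WDA males it is given for the 3 members with an unadjusted p under 0.05. Up to 4 called genes per list with the largest change and the 3 genes most like each member are named. One gene that this rule names is not reported here. The members, lists and tests were chosen with earlier results of these data known. A list of 6 female-biased transcripts was added for the check of sexes. Mouse numbers were taken from the labels and repeat between experiments without pairing mice. Alternatives were RLE scaling, library totals (chosen after seeing the data), no filter, DESeq2 1.42.0, a spread shared by all 9 groups, leaving out each mouse, the replicate number as a block, FPKM for fold changes and Spearman for likeness.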

Additional observations from a re-analysis of the deposited data

Results flagged for a closer look

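*Slc30a10* differed between WDA and Res in opposite directions in KO mice of the 2 sexes, without overlap between the stages in either sex. The mice of the stages are different animals, and edgeR called the difference in females only. In KO females it was at 59.1 to 72.0 CPM on WDA and 38.1 to 46.2 CPM at Res (log2 fold change -0.61), and in KO males at 18.8 to 29.9 CPM on WDA and 45.3 to 61.2 CPM at Res (log2 fold change 1.15). The difference between the sexes was not tested.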

How the results depend on the processing

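All 33 differences where a member was called or did not overlap kept their direction under all alternatives tried. The interactions and the 3 fold changes in KO against WT WDA males are not among them. The 33 were picked for a call or a lack of overlap, so their direction could hardly turn. That it was kept is no support for them. RLE scaling, library totals and no filter changed no call among the 8 members. With DESeq2 in place of edgeR the members called were 3 in KO against WT Res females, 5 in HepKO against WT WDA females and 2 in Res against WDA KO males, where edgeR called 0. With a spread shared by all 9 groups they were 2, 1 and 1 in the same comparisons, 1 in Res against WDA WT females (edgeR on its own groups: 0), 2 in Res against WDA WT males (4) and 4 in Res against WDA KO females (5), where *Slc30a10* lost its call. The cause was not tested.

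Leaving out 1 mouse gave 0 to 5 members called in KO against WT Res females, 0 to 4 in HepKO against WT WDA females, 1 to 4 in Res against WDA WT males, 3 to 6 in Res against WDA KO females, 0 to 3 in males against females WT WDA and 0 to 2 in the interaction of KO with sex. It left 0 called in the other 8 comparisons. Among the 33 differences, 21 of 198 such values lost a call and 7 gained one.

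Among the pairs compared, only Res against WDA KO females shares 2 or more mouse numbers. The replicate block there gave 5 members called, as without it, and 1707 genes in place of 2550. The numbers come from different experiments and do not pair mice.

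Over all genes, library totals moved the median log2 fold change by over 0.1 in 8 comparisons, to -0.35 in males against females WT WDA and 0.21 in KO against WT WDA males. They split the calls into 587 higher and 227 lower in Res against WDA WT males (TMM: 619 and 742), 934 and 1699 in KO females (1273 and 1277), and 55 and 93 (66 and 39) and 46 and 46 (44 and 25) between the sexes on WDA and at Res. The genes called by edgeR, DESeq2 and the shared spread were 0, 615 and 670 in KO against WT Res females, 0, 222 and 49 in HepKO against WT, 0, 387 and 840 in Res against WDA WT females, 1361, 1711 and 308 in WT males, 2550, 2595 and 1558 in KO females, 0, 79 and 102 in KO males, and 105, 549 and 349 and 69, 270 and 176 between the sexes on WDA and at Res. HepKO against KO gave 2, 38 and 0, and KO against WT gave 0, 8 and 0 in WDA females, 0, 17 and 0 in WDA males and 0, 7 and 0 in Res males. The interactions gave 0, 78 and 9 (sex) and 0, 1 and 1 (stage). Without the filter, 0 became 1, 7 and 2 in KO against WT Res females, HepKO against WT and Res against WDA KO males, and 2 became 5 in HepKO against KO.

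Leaving out 1 mouse moved the genes called to 106 to 1685 in Res against WDA WT males, 1026 to 2292 in KO females, 15 to 1036 and 21 to 109 between the sexes on WDA and at Res, and up to 852 in KO against WT Res females, 349 in HepKO against WT and 241 in the interaction with sex.

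With Spearman in place of Pearson, 10 of the 16 sets of 3 most similar genes kept fewer than 2, among them *Slc30a1* over all libraries and *Slc30a10* after centring with 0. With FPKM, 3 differences moved by more than the spread between mice, to 0.35 for *Slc30a1* in HepKO against WT and, between the sexes on WDA, to -0.62 for *Slc39a14* and -0.64 for *Slc30a1*. Precision rests on 3 mice per group, and *Slc39a5* on 5 to 79 counts.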
